A study of Homo sapiens with 17 samples.

Results

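The genes described here are 10 regulators and products of bone-forming and mesenchymal cells: RUNX1, RUNX2, SP7, TWIST1 and MSX2, which encode transcription factors, and ALPL, SPARC, BGLAP, SPP1 and IBSP, which encode an enzyme and matrix proteins of bone. They were chosen by name, and peaks were assigned to a gene when the summit lay inside its RefSeq span on GRCh38 or within 100 kb of either end. By this rule 241 of the 208775 peak entries in the 8 combined peak lists of the study lay near the 10 genes, which are 10 of 19970 protein-coding genes placed in the same way. Each gene stands for a window and not for a regulatory link: 131 of the 241 entries (54.4%) had one of the 10 genes as their nearest protein-coding gene, and 76 (31.5%) had their summit inside the span of one of them. The files gave gene spans without exons, so a summit inside a span was not placed in an exon, intron or untranslated region. The windows of SPP1 and IBSP overlap over 36.7 kb, and 4 binding sites were counted for both.

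The study mapped where FOXA and SOX2 proteins bind in U2OS, a line established from a human osteosarcoma, a malignant tumour of bone. Stable U2OS lines carried a Tet-on construct, in which doxycycline switches on the introduced gene, and every factor group received doxycycline at 500 ng/ml for 4 days before chromatin immunoprecipitation with a Flag antibody and sequencing (ChIP-seq). The 8 groups expressed Flag-tagged FOXA1, FOXA2 or FOXA3 at full length, each of these with the CTD (carboxy-terminal domain) deleted, SOX2, or a SOX2-FOXA2 CTD fusion, with 2 biological replicates per group and 1 U2OS input sample. The labels give doxycycline as 500 ng/ml in one field and per microlitre in another, do not say whether a line was 1 clone, and describe binding of an introduced protein and not of one made by the cells themselves. Each group had 1 combined list built from both replicates, so no difference between groups could be set against the spread between replicates and no p-value between groups was computed.

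FOXA proteins are forkhead transcription factors known as pioneer factors of endoderm, liver and pancreas, because they can bind their sites in closed chromatin. SOX2 is an HMG-box factor of pluripotent and neural cells that is also counted among pioneer factors. In bone, RUNX2 commits mesenchymal progenitors to the osteoblast fate and acts upstream of SP7 (osterix), TWIST1 restrains RUNX2, MSX2 acts in craniofacial bone, and RUNX1 is a relative of RUNX2 best known from blood formation. ALPL is the tissue-nonspecific alkaline phosphatase needed for mineralisation, and SPARC (osteonectin), BGLAP (osteocalcin), SPP1 (osteopontin) and IBSP (bone sialoprotein) are proteins of the bone matrix. Expression of these genes was not part of the data used here, so the bone identity of the cells was not checked.

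Peaks at the start sites of the 10 genes were few. RefSeq promoter windows, 250 bases before to 50 bases after a start, were at hand for 11 starts of 8 of the genes (GRCh38.p14). A peak overlapped 1 of the 11 windows in each of the FOXA1 CTD-deleted, FOXA2 full-length and FOXA2 CTD-deleted lists and 0 of 11 in the other 5 lists. Over all 22131 promoter windows of protein-coding genes, the share overlapped was 7.38% and 1.67% for the FOXA1 pair (full length, then CTD-deleted), 6.74% and 5.39% for the FOXA2 pair, 1.07% and 1.35% for the FOXA3 pair, 0.127% for SOX2 and 3.44% for the fusion. With 11 windows, 0 or 1 overlap does not differ from these shares by more than a single peak. The promoters concerned were the first annotated start of RUNX2 and the start of SPP1, and their 250 bases before the start are shown because they are the only promoter windows of these genes with a peak. Capitals mark ACCACA, the complement of TGTGGT, which is the core that RUNX proteins recognise. The RUNX2 window is chr6:45328080-45328329 and the SPP1 window chr4:87975464-87975713, both GRCh38.p14 and both on the plus strand, read 5′ to 3′.
RUNX2: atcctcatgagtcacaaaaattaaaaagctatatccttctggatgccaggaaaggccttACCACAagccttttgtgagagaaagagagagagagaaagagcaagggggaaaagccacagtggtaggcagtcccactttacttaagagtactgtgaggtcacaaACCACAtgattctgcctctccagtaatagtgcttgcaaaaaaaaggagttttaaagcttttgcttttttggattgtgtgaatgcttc
SPP1: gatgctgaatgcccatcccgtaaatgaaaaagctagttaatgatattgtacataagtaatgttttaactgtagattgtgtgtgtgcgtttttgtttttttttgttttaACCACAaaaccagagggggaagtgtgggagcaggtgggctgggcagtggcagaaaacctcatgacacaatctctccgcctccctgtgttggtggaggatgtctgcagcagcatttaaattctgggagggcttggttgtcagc

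The FOXA2 CTD-deleted peak at RUNX2, chr6:45328192-45328784, covered 138 of the 250 bases and all of the RUNX core that lies 87 to 82 bases before the start. The −log10 p of this peak was 3.57 in one replicate and 4.85 in the other. The FOXA2 full-length peak, chr6:45328309-45328987, covered the last 21 bases and neither RUNX core, with 2.34 and 2.44. At SPP1 the FOXA1 CTD-deleted peak, chr4:87974905-87975576, covered 113 bases, including 5 of 6 bases of the RUNX core, with 3.23 and 9.08. TGTGGT, searched on both strands, was present in 3 of the 11 windows (RUNX2, SPP1 and BGLAP) and in 9.36% of all 22131. The forkhead core was searched on both strands as TATTTAC and in the further spellings TATTTGC, then TGTTTAC, then also TGTTTGC. It was present in 1 of the 11, a later start of ALPL where matches on the opposite strands overlap, and in 8.81% of all windows. Neither sequence above held it. A match here describes letters and says nothing of whether a factor binds them.

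FOXA1 and FOXA2 peaks lay near all or nearly all of the 10 genes, FOXA3 peaks near 5 of them and SOX2 peaks near none. FOXA1 full length had a peak near 9 genes, all but MSX2, against 83.4% of all protein-coding genes. FOXA1 CTD-deleted, FOXA2 full length and FOXA2 CTD-deleted had a peak near 10 of 10, against 82.2%, 85% and 86.4% of protein-coding genes. Both FOXA3 lists reached the same 5 genes, RUNX1, SP7, TWIST1, BGLAP and IBSP, against 34.7% of genes for full length and 38.9% for the CTD deletion. The SOX2 list had a peak near 0 of 10 genes (1.46% of all genes), and the fusion near 3, RUNX1, SP7 and SPARC (35.5%). These counts stood close to the shares over all genes, so presence of a peak within 100 kb did not set the 10 genes apart.

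The number of peaks near the 10 genes ran from 0 to 66. It was 43 of 37532 for FOXA1 full length, 52 of 50539 with its CTD deleted, 57 of 45076 for FOXA2 full length and 66 of 53415 with its CTD deleted. FOXA3 had 8 of 6130 at full length and 10 of 6813 without the CTD. SOX2 had 0 of 1375, which allows a share of up to 0.218%, and the fusion had 5 of 7895. As a share of each list this was 0.115%, 0.103%, 0.126%, 0.124%, 0.131%, 0.147%, 0% and 0.0633% in that order. The SOX2 share is not like the FOXA shares, since few SOX2 peaks lay within 100 kb of any protein-coding gene (0.0496 per Mb). The 0.103 to 0.147% of the 6 FOXA lists all lay inside the exact 95% binomial interval of FOXA1 full length, 0.0829 to 0.154%, so the 43 to 66 peaks of FOXA1 and FOXA2 and the 8 and 10 of FOXA3 were similar shares of lists that differ in length. Such intervals cover counting error over peaks only. The lists were also cut at different limits of the irreproducible discovery rate (IDR), the expected share of peaks whose ranks do not repeat between replicates, which ran from 0.01 for FOXA3 CTD-deleted to 0.920 for the fusion.

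**Figure D1:**
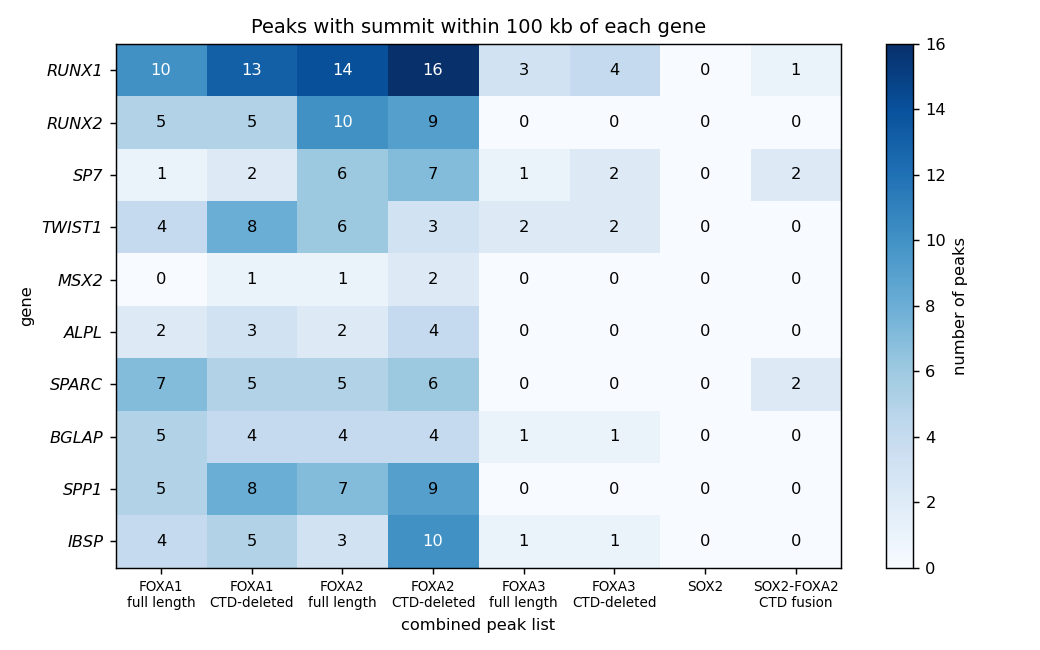
Number of peaks with a summit within 100 kb of each gene (rows) in each combined list (columns), with darker cells for more peaks. RUNX1 has the highest count in every FOXA list and reaches 16 in FOXA2 CTD-deleted, whereas MSX2 has 0 to 2 and the SOX2 column is 0 throughout.

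Among the regulators, RUNX1 carried the most peaks and MSX2 the fewest. RUNX1, on chromosome 21 with a span of 262 kb, had 10, 13, 14 and 16 peaks in the FOXA1 full-length, FOXA1 CTD-deleted, FOXA2 full-length and FOXA2 CTD-deleted lists, then 3 and 4 for the FOXA3 pair and 1 for the fusion. Of its 61 entries, 46 had their summit inside the gene, and RUNX1 was the nearest protein-coding gene of all 61. RUNX2, with a span of 223 kb on chromosome 6, had 5, 5, 10 and 9 peaks in the FOXA1 and FOXA2 lists and 0 in the others. Both FOXA2 counts were thus above both FOXA1 counts at RUNX2. The SP7 window showed the same order more steeply, with 1 and 2 FOXA1 peaks against 6 and 7 FOXA2 peaks, then 1 and 2 for FOXA3 and 2 for the fusion. This window on chromosome 12 holds 10 other protein-coding genes, and SP7 was the nearest gene of 4 of its 21 entries. Those 4 were the 2 fusion peaks and a peak found in both FOXA3 lists. Every FOXA1 and FOXA2 peak of the window was nearest to another gene, so their order describes the window and not SP7 itself. TWIST1 had 4, 8, 6 and 3 peaks in the FOXA1 and FOXA2 lists and 2 in each FOXA3 list. MSX2 had 0, 1, 1 and 2.

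Among the genes of the matrix and of mineralisation, SPP1 carried the most FOXA1 and FOXA2 peaks (29 entries over the 4 lists), followed by SPARC with 23 and IBSP with 22, and ALPL the fewest with 11. SPP1 had 5, 8, 7 and 9 peaks in the FOXA1 full-length, FOXA1 CTD-deleted, FOXA2 full-length and FOXA2 CTD-deleted lists, and IBSP had 4, 5, 3 and 10. SPP1 and IBSP lie close together on chromosome 4 within a cluster of genes for mineralised matrix that also holds MEPE, and the single FOXA3 site of IBSP, present in both FOXA3 lists, had MEPE as its nearest gene. SPARC had 7, 5, 5 and 6 peaks and BGLAP 5, 4, 4 and 4, both with little change between lists. BGLAP was the nearest gene of 1 of its 19 entries, in a window with 11 other protein-coding genes. ALPL had 2, 3, 2 and 4 peaks.

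Counts rise with gene length, so they were also expressed as peaks per 100 kb of window and averaged over the 4 FOXA1 and FOXA2 lists. The order was then SPP1 with 3.49, RUNX1 with 2.87, IBSP with 2.58, TWIST1 with 2.57, SPARC with 2.55, BGLAP with 2.11, SP7 with 1.83, RUNX2 with 1.71, ALPL with 1.02 and MSX2 with 0.485. Neighbours in this order overlapped: the 4 lists gave 2.41 to 4.33 for SPP1, 2.17 to 3.47 for RUNX1 and 1.41 to 4.70 for IBSP, so the first 5 genes were not separated by their spread over lists. MSX2, at 0 to 0.969 over the lists, overlapped only SP7 and ALPL, whose lowest values were 0.458 and 0.742. The median protein-coding gene had 1.23, and 8 of the 10 genes lay above it, all but ALPL and MSX2, with 6 above the upper quartile of genes. The median of the 10 genes was 2.33, against 1.53 for 30 other genes of the bone lineage and 1.26 for 10 endoderm regulators. Those 30 genes were not fully separate: MEPE, 1 of them, lies in the IBSP window, and DLX5 and DLX6 had the same count in every list.

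**Figure D2:**
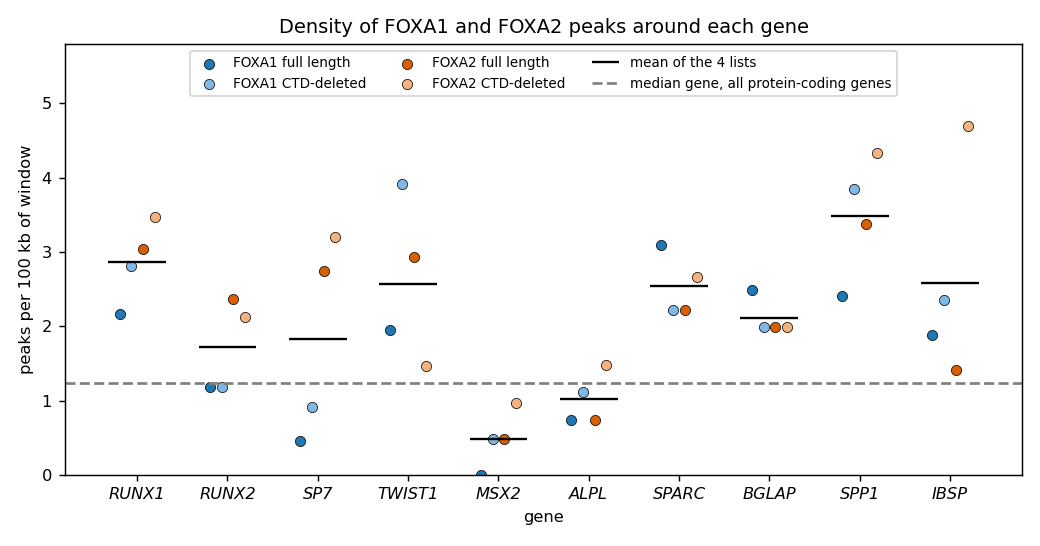
Peaks per 100 kb of window for each gene, with 1 point for each FOXA1 or FOXA2 list, the mean of the 4 lists as a bar, and the median protein-coding gene as a dashed line at 1.23. The bars of 8 genes lie above the dashed line, from 1.71 for RUNX2 to 3.49 for SPP1, and those of ALPL and MSX2 lie below it.

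Over all 10 windows together, 2.59 Mb, FOXA1 and FOXA2 peaks were denser than over the 2078 Mb within 100 kb of any protein-coding gene. FOXA2 full length had 22 peaks per Mb against 15.3, a ratio of 1.44 (95% interval from counting alone 1.09 to 1.86), and FOXA2 CTD-deleted had 25.4 against 18.5, a ratio of 1.38 (1.07 to 1.75). FOXA1 full length had 16.6 against 13.1 (1.27, 0.918 to 1.71) and FOXA1 CTD-deleted 20.0 against 16.5 (1.22, 0.909 to 1.60), intervals that include equal density. Among FOXA2 CTD-deleted peaks with an IDR of at most 0.01 the ratio turned to 0.873, from 5 peaks, and in windows of 250 kb it was 1.03. FOXA2 full length had 0 peaks in its whole list at that limit. For FOXA1 full length the ratio at that limit was 0.670, from 2 peaks. Leaving out any 1 gene kept the ratio of each FOXA1 and FOXA2 list between 1.11 and 1.55. FOXA3 stood at 1.60 (0.691 to 3.15) and 1.69 (0.811 to 3.11), and the fusion at 0.879 (0.285 to 2.05). SOX2 had 0.0496 peaks per Mb over all coding windows, too few to expect any in 2.59 Mb.

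Neither the regulators nor the matrix genes were the more densely bound in every list, and the difference was not tested. In peaks per Mb, the 5 regulators had 13.2 and the 5 matrix and mineralisation genes 21.3 for FOXA1 full length. The values were 19.2 and 21.3 for FOXA1 CTD-deleted, 24.4 and 18.5 for FOXA2 full length, and 24.4 and 26.8 for FOXA2 CTD-deleted. For FOXA3 the regulators had 3.96 at full length and 5.29 without the CTD, against 1.85 for the matrix genes in both lists, from 8 and 10 peaks in all. The group with the higher density thus changed between lists. Among the 30 other genes of the bone lineage, 26, 27, 27 and 28 had a peak in the FOXA1 and FOXA2 lists, in the same order, 11 in each FOXA3 list, 0 in SOX2 and 6 in the fusion. Over all protein-coding genes the shares were 83.4%, 82.2%, 85% and 86.4%, then 34.7% and 38.9% for FOXA3, 1.46% for SOX2 and 35.5% for the fusion. Of these 30 genes, the 2 with most FOXA1 and FOXA2 entries were TNFRSF11B, the decoy receptor that limits bone resorption, with 42, and BMP6, a bone morphogenetic protein, with 35. Of the 10 endoderm regulators, the known setting of FOXA factors, 8, 10, 10 and 10 had a peak in the FOXA1 and FOXA2 lists and 3 in each FOXA3 list. The FOXA counts of both gene lists stood close to the shares over all genes, so they did not set either list apart.

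Strength was taken as the lower of the 2 replicates' −log10 p and ranked within each list, as a percentile in which 100 is the strongest peak. Tied peaks were given the same percentile, and ties were common. Many FOXA2 full-length peaks near these genes stood at 11.1 or 55.0, so medians and their intervals move in steps. Peaks near the 10 genes were of middling rank. Their median percentile was 38 for FOXA1 full length (order-statistic 95% interval 27.1 to 49.7), 47 with its CTD deleted (35.2 to 63.3), 55.0 for FOXA2 full length (26.5 to 61.4) and 51.6 for FOXA2 CTD-deleted (39.5 to 59.2). The peaks near all protein-coding genes had medians of 49.7, 48.9, 49.1 and 50.2, each inside the matching interval or at its end. The 8 and 10 FOXA3 peaks had medians of 29.2 and 33.1, and the 5 fusion peaks 63.5. In the strongest 10% of their list were 2 FOXA1 full-length, 7 FOXA1 CTD-deleted, 5 FOXA2 full-length and 4 FOXA2 CTD-deleted peaks, and 0 peaks of the FOXA3 and fusion lists.

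The strongest peaks lay at SPARC, IBSP and TWIST1. At SPARC, on chromosome 5, the FOXA1 full-length peak chr5:151662097-151663047 lay inside the gene near its lower coordinate end, the far end from the start of this minus-strand gene, and ranked 322 of 37532 (percentile 99.1), with −log10 p of 14.8 and 17.6. The same site was at percentile 94.5 for FOXA1 CTD-deleted, 98.2 for FOXA2 full length and 69.3 for FOXA2 CTD-deleted, so that the FOXA2 CTD-deleted peak was the weakest of the 4. At IBSP the FOXA2 CTD-deleted peak chr4:87805721-87806347 lay inside the gene and ranked 462 of 53415 (99.1), with −log10 p of 14.2 and 15.3. There the order ran by factor, with 96.4 for FOXA2 full length but 40.7 and 65.3 for FOXA1 at full length and without the CTD.

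The site below TWIST1 was the one strongly bound by all 3 FOXA factors. It spanned chr7:19060345-19061843 over the lists, 51.8 kb below the gene and outside any protein-coding span, with TWIST1 as the nearest gene. Its percentiles were 98.5 and 98.4 for FOXA1 at full length and without the CTD, 95.4 and 99.0 for FOXA2, and 85.6 and 85.2 for FOXA3, and the summits of the 6 lists lay within 34 bases. The −log10 p in the 2 replicates was 15.3 and 13 for FOXA1 full length, 14.9 and 52.5 without its CTD, 16.9 and 5.86 for FOXA2 full length, 13.6 and 29.1 for FOXA2 CTD-deleted, and 11.7 and 29.8 in both FOXA3 lists. Both FOXA3 lists hold the same row at this site, so they are not separate measurements of it. No other site near the 10 genes was above percentile 85 in all of its lists when it was held by 3 or more.

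At RUNX1 the strongest peak was FOXA2 full length, chr21:34845645-34846073 inside the gene, with −log10 p of 7.60 and 7.00 and percentile 97.5. This site was held by all 6 FOXA lists too, at 77.2 and 90.3 for FOXA1 full length and CTD-deleted, 56.1 for FOXA2 CTD-deleted, and 21.3 and 28.4 for FOXA3. It was therefore shared by the lists but at unequal rank. At RUNX2 the strongest peak was FOXA2 CTD-deleted, chr6:45324302-45325126, with −log10 p of 8.15 and 9.97 and percentile 95. It lay 3.46 kb below the RUNX2 span and inside SUPT3H, whose span runs into RUNX2. FOXA2 full length had a peak there at 67.3 and FOXA1 full length at 38, whereas FOXA1 CTD-deleted had none. For SPP1 it was FOXA2 CTD-deleted, chr4:88017502-88018284, at 97.4, inside the neighbouring gene PKD2 and 34.4 kb above SPP1.

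The other 4 genes had no peak above percentile 91. The strongest at BGLAP was FOXA1 CTD-deleted at 90.3, with SLC25A44 as the nearest gene, and at ALPL it was FOXA2 full length at 76.7, inside RAP1GAP. Over the FOXA1 and FOXA2 lists, the strongest at SP7 was FOXA2 CTD-deleted at 68.9, nearest to SP1. A fusion peak at SP7 ranked higher within its own list, at 76.7. The strongest at MSX2 was FOXA2 CTD-deleted at 59.8, 80.1 kb above the gene. Ranked by the higher of the 2 replicates' −log10 p instead, MSX2 fell to 29.9, ALPL to 49.7 and BGLAP to 79.9, so these ranks rest on the lower value. The strongest peaks at RUNX1, RUNX2, SPP1, SPARC and IBSP fell by less, to 91.5, 88.6, 93.3, 96.2 and 96.4. Those at SP7 and TWIST1 rose, to 71.8 and 99.6. By the lower value, the highest percentile over the FOXA1 and FOXA2 lists belonged to a FOXA1 list for SPARC and BGLAP. It belonged to a FOXA2 list for the other 8 genes. This split was not tested and was not repeated with the higher value. The FOXA2 lists held more peaks near the 10 genes (57 and 66 against 43 and 52), and at TWIST1 the values were 99.0 for FOXA2 and 98.5 for FOXA1.

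**Figure D3:**
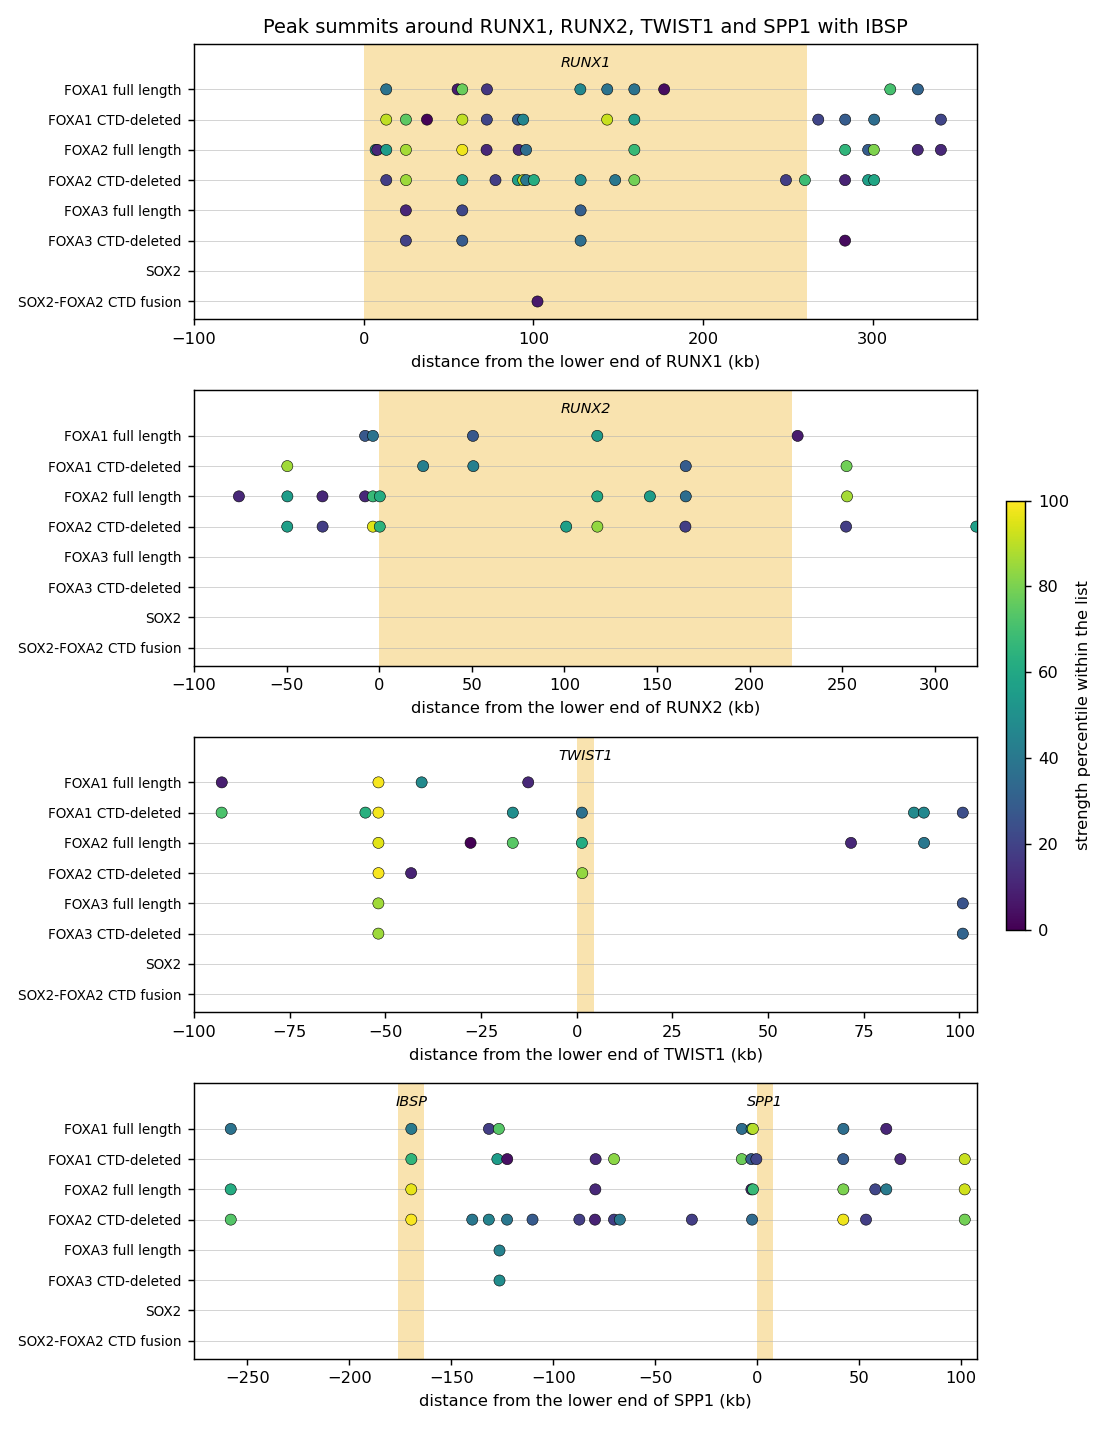
Peak summits in each list by distance in kb from the lower coordinate end of RUNX1, RUNX2, TWIST1 and SPP1, with gene spans shaded and the point colour giving the strength percentile within the list. At TWIST1 the column of points 51.8 kb below the gene is present in all 6 FOXA lists at percentiles of 85.2 to 99.0, and the SOX2 row has no point in any panel.

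Overlapping peaks of the 8 lists merged into 120 sites, and most were held by few lists. Of these, 57 (47.5%) were in 1 list, 31 in 2, 17 in 3, 11 in 4, 2 in 5 and 2 in 6. Both FOXA3 lists count here, although all 8 FOXA3 full-length peaks near the 10 genes are identical rows in the FOXA3 CTD-deleted list. All 4 FOXA1 and FOXA2 lists shared 10 sites, 3 near RUNX1, 3 near SPARC, 2 near SPP1, 1 near TWIST1 and 1 near IBSP. That was 5 of 10 genes, against 45.3% of protein-coding genes with such a site. Those 10 were 8.85% of the 113 sites with a FOXA1 or FOXA2 peak, against 9.16% of the 103347 such sites in the whole study. The 3 sites of RUNX1 all lay inside the gene, whereas 2 of the 3 counted for SPARC lay inside its neighbour G3BP1. RUNX2, SP7, MSX2, ALPL and BGLAP had no site in all 4 lists. All 6 FOXA lists shared 2 sites, the ones at RUNX1 and TWIST1 given above, or 2 of 10 genes against 14.6%.

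Sites held by more lists carried stronger peaks, as a description of sites that share lists. The median percentile of FOXA1 and FOXA2 peaks was 22.1 at sites in 1 of these 4 lists, 42.2 in 2, 56.1 in 3 and 69.3 in all 4. The quartiles were 11.3 to 44.0 for 1 list and 54.8 to 90.3 for 4 lists. A peak that 1 list alone held was therefore most often a weak one, and single-list sites were spread over FOXA1 full length (11), FOXA1 CTD-deleted (8), FOXA2 full length (14) and FOXA2 CTD-deleted (18).

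**Figure D4:**
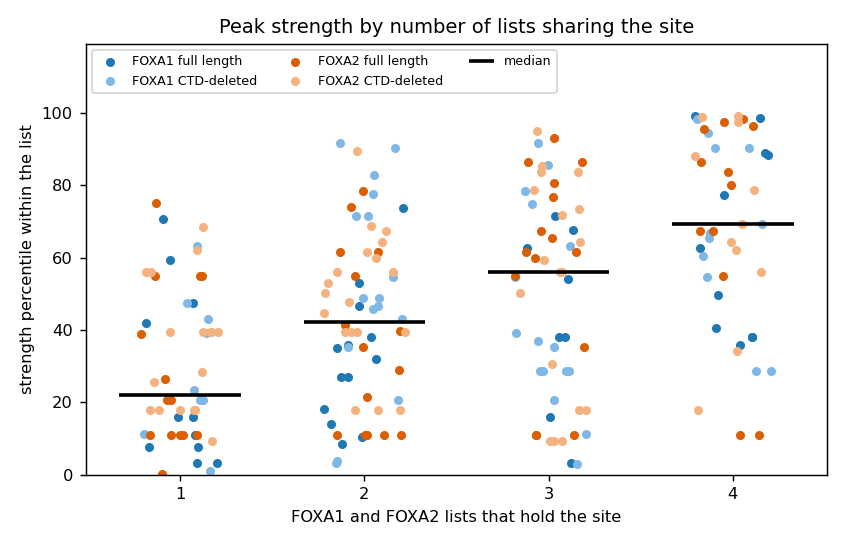
Strength percentile of each FOXA1 and FOXA2 peak near the 10 genes by the number of these 4 lists that hold its site, with the median as a black bar and points spread sideways for visibility. The median rises from 22.1 for sites in 1 list to 69.3 for sites in all 4, while peaks below percentile 20 occur in every column.

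The pairs with and without the CTD ask whether deleting that domain changed binding near these genes. Near the 10 genes FOXA1 had 52 peaks without the CTD against 43 at full length, a ratio of 1.21 (0.792 to 1.86, exact, from counting alone), and over all peaks the ratio was 1.35. FOXA2 had 66 against 57, a ratio of 1.16 (0.800 to 1.68) against 1.19 over all peaks. Both intervals include equal counts and the ratio of the whole lists. For each factor 7 genes had more peaks without the CTD, 2 had fewer and 1 had as many, where 40.5% of protein-coding genes had more and 33.3% fewer for FOXA1, and 44.4% more and 30.4% fewer for FOXA2. TWIST1 moved oppositely in the pairs, from 4 to 8 for FOXA1 and from 6 to 3 for FOXA2, and IBSP went from 3 to 10 for FOXA2 but from 4 to 5 for FOXA1. The lists of a pair were cut at different IDR limits, and under the stricter limit of the pair the FOXA1 counts were 7 and 52, a ratio of 7.43, and the FOXA2 ratio was 1.89. With equal numbers of the strongest peaks taken from both lists, the counts were 43 and 41 for FOXA1 and 57 and 59 for FOXA2.

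Many of the same positions were bound with and without the CTD. Of the FOXA1 full-length peaks near the 10 genes, 22 of 43 (51.2%, exact 95% interval 35.5 to 66.7) overlapped a FOXA1 CTD-deleted peak, as 56.0% did over the whole list. In the other direction 21 of 52 (40.4%) overlapped, against 41.7%. For FOXA2 the shares were 35 of 57 (61.4%, 47.6 to 74.0) against 51.3%, and 34 of 66 (51.5%) against 43.2%. The FOXA2 shares were above those of the whole lists but within the counting interval. Each overlapped full-length peak was set against the strongest CTD-deleted peak that overlapped it. The percentile without the CTD minus that at full length had a median of 4.29 for FOXA1 (12 higher, 10 lower) and 2.70 for FOXA2 (21 higher, 14 lower). Single peaks ranged from −68.5 to 63.0 and from −68.3 to 76.9. The paired summits lay 4 and 42 bases apart at the FOXA1 extremes. At the FOXA2 extremes they lay 525 and 1397 bases apart, so the FOXA2 range includes pairs of unlike position. The median shift was thus small beside the scatter of single peaks.

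**Figure D5:**
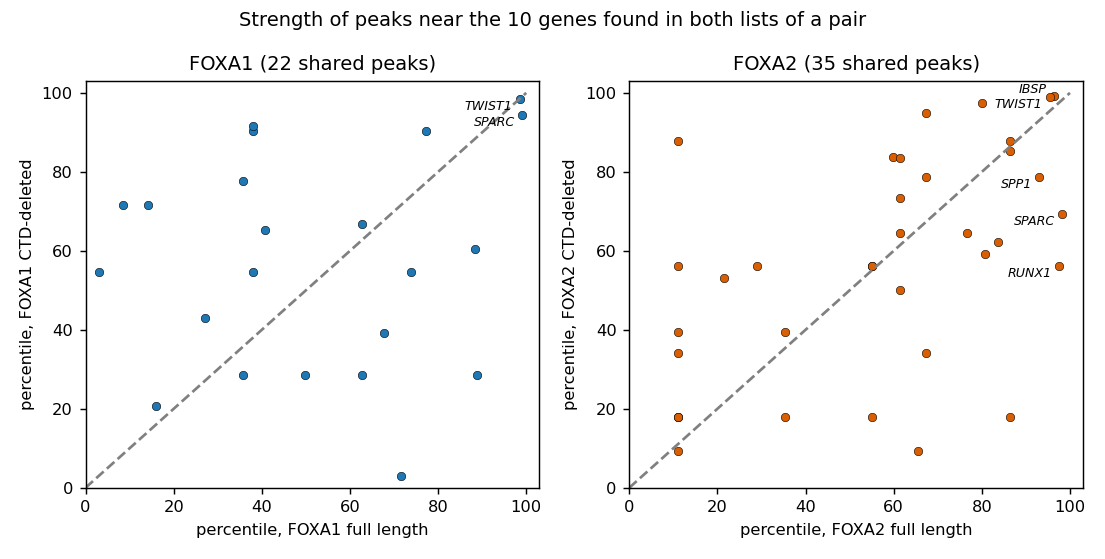
Strength percentile at full length (horizontal) and with the CTD deleted (vertical) for the 22 FOXA1 and 35 FOXA2 full-length peaks near the 10 genes that overlap a CTD-deleted peak, with equality as a dashed line and the gene named at peaks above percentile 90 at full length and above 50 without the CTD. The vertical value is that of the strongest overlapping CTD-deleted peak. Points scatter on both sides of the line, and TWIST1 lies in the upper right corner of both panels.

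The strongest peaks found in 1 list of a pair were the following. Of the FOXA1 pair, full length alone had a peak above the RUNX1 span, chr21:35097738-35098341, at percentile 70.5 with −log10 p of 7.81 and 5.01. The CTD-deleted form alone had chr4:88077162-88077771 in the SPP1 window, at 91.6 with 9.08 and 21.1, inside PKD2. Both FOXA2 lists also held this position, at 93 and 78.8, so it was missing from FOXA1 full length but not from FOXA lists in general. Of the FOXA2 pair, full length alone had chr1:156326877-156327342 in the BGLAP window, at 78.5, inside CCT3. The CTD-deleted form alone had chr21:34881413-34882140 inside RUNX1, at 89.5 with 6.16 and 8.19. Peaks in 1 list of a pair had median percentiles of 31.9 and 39.1 for FOXA1 and 20.7 and 39.5 for FOXA2.

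FOXA3 peaks lay at 10 sites, and 8 of these (80%, exact 95% interval 44.4 to 97.5) also held a FOXA1 or FOXA2 peak, against 93.4% of the 7099 FOXA3 sites of the whole study. At RUNX1 3 sites were common to both FOXA3 lists, and a further RUNX1 site, 22.3 kb above the gene, and an SP7 site near AMHR2 were in the CTD-deleted list alone, at percentiles 3.04 and 6.65. The ratio of 10 to 8 was 1.25 (0.444 to 3.64). Near no gene did the count fall without the CTD (0.516% of protein-coding genes), and near 2, RUNX1 and SP7, it was higher (8.87%). The ratio does not compare independent measurements: all 8 full-length peaks near the 10 genes were rows identical in the CTD-deleted list in position and both p-values, as were 5012 rows of the whole lists. With those rows left out of both lists, 0 full-length and 2 CTD-deleted peaks remained near the 10 genes. The fold and the shared strength of the FOXA3 pair therefore describe 1 set of values deposited in both lists.

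SOX2 had no peak near the 10 genes, and the fusion with the FOXA2 CTD had 5. The fusion count was 1.67-fold the floor of 3 counts given to SOX2, a lower bound that leaves out the counting error of the 5 peaks. The whole lists differed 5.74-fold. Within 100 kb of any protein-coding gene the difference was larger, with 0.0496 peaks per Mb for SOX2 and 2.19 for the fusion. The fusion peaks lay inside SP7 and 4.14 kb above it, inside SPARC and 7.36 kb above it, and inside RUNX1, so 3 genes had more peaks in the fusion list (35.1% of protein-coding genes) and 0 had fewer (0.165%). The strongest, chr12:53348409-53349092 above SP7, was at percentile 76.7 with −log10 p of 4.04 and 3.39. None of the 5 overlapped a FOXA peak, against 37.7% of all 7895 fusion peaks. With 5 peaks the exact 95% interval of that 0% reaches 52.2%, so the difference from the whole list was within counting error. The fusion list was cut at an IDR of 0.920, and none of the 5 was left at the limit of the SOX2 list, 0.100, or at 0.01. None was left either when the fusion list was cut to its strongest peaks in the number of the SOX2 list.

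Lists of replicate 1 alone, used here for SOX2 and its fusion, held more peaks near the 10 genes than the combined lists. SOX2 had 12 of 13977, near 6 genes (RUNX2, TWIST1, ALPL, SPARC, SPP1 and IBSP), where 42.1% of protein-coding genes had a peak. The highest counts were 4 at TWIST1 and 3 each at SPP1 and IBSP, whose windows overlap. The fusion had 50 of 42705, near all 10 genes, where 79.3% of protein-coding genes had one, with 10 at SPARC and 8 at SPP1. The strongest SOX2 peak near the 10 genes had a −log10 p of 6.62 and the strongest fusion peak one of 7.74. These peaks have no second replicate beside them.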

How the data were processed

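Peak lists of Flag ChIP-seq in U2OS were used as deposited, 10 of 14 lists, since 4 were byte-for-byte copies. Per the submitters' processing notes, the tools included FastQC 0.10.1, Trim Galore, Bowtie2 2.4.4, SAMtools 0.1.18, MACS2 and deepTools 2.4.1, with the build hg38. The 8 combined lists have the 20-column layout of the IDR program, and the limit of each was read from its values. The IDR score and the −log10 p of each replicate are the authors' deposited values, without a replicate number, and served to rank and filter the peaks of each list. The depth of every library is unknown, and groups came from the sample titles.

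Peaks were assigned to RefSeq spans (GRCh38.p14) by summit within 100 kb, and overlap meant at least 1 shared base. Sites are merged overlapping peaks. Genes and promoters were matched by symbol, 10 of 10 and 8 of 10. Intervals are exact (Clopper-Pearson or Poisson) at 95% and a count of 0 was given a floor of 3. Named peaks were the strongest per gene over the FOXA1 and FOXA2 lists, the site in most lists, and the strongest in 1 list of each pair. The 10 genes, the other gene lists and the tests were chosen with earlier results of these data known. The density comparison, its alternatives and the ranking of each gene's strongest peak by the higher p were added after seeing the data. Scripts were tested on simulated data (Python 3.11.15, numpy 2.4.6, pandas 2.3.3, scipy 1.17.1). The input sample has no list and was not analysed here.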

Additional observations from a re-analysis of the deposited data

How the results depend on the processing

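Of 135 alternative values for 33 results, 115 stayed inside the interval of the main value or, without one, within a set tolerance. A further 19 moved outside it and 1 reversed. A ratio was called reversed only where its main interval excluded equality. The FOXA1 ratio of 1.21, whose interval included equality, became 0.953 with equal numbers of the strongest peaks and is counted among the 115. With only peaks at an IDR of at most 0.01, the FOXA1 ratio was 13.5, from 2 and 27 peaks of lists cut to 3438 and 26826, FOXA1 full length had a peak near 2 genes, FOXA2 CTD-deleted near 5 and the fusion near 0, the median percentiles were 87.2 for FOXA1 full length and 78.8 for FOXA2 CTD-deleted, and the density ratios were 0.670 and, reversed, 0.873. The FOXA2 full-length list has no peak at that limit, so it gave no value. Under the stricter limit of each pair the ratios were 7.43 for FOXA1 and 1.89 for FOXA2. Windows of 250 kb gave the fusion a peak near 8 genes, a ratio of 4.00 to the floor given to SOX2 and a FOXA2 CTD-deleted density ratio of 1.03. Counting only peaks whose nearest gene is 1 of the 10 left 3 genes in both FOXA3 lists, and leaving out the shared rows left 0 genes at full length. The share of all protein-coding genes with a peak was not computed under any of these alternative settings. Their counts of genes therefore describe the setting and cannot be read as results about the 10 genes. With the shared rows left out of both FOXA3 lists, 0 and 2 peaks remained, which gives no ratio. Lists of replicate 1 alone gave a fusion to SOX2 ratio of 4.17. SOX2 gave no median, and ratios to it at stricter limits or equal numbers had no peak on either side. No paired analysis was possible because each group has 1 combined list and its values carry no replicate number. No replicate could be left out of a combined list; the lists of replicate 1 alone, for SOX2 and its fusion, are the only single-replicate values used. Unknown depth and unequal IDR limits bound every comparison of counts between lists.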
